A study of Rattus norvegicus with 12 samples.

Results

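Ribosome biogenesis and nucleolar genes were followed in cultured rat heart cells that carried different forms of the transcription factor MEF2C. A list of 60 genes was drawn up by function. It covered RNA polymerase I and its factors, the PeBoW complex and the core proteins of both classes of small nucleolar ribonucleoprotein (snoRNP). It also held other nucleolar proteins and the assembly factors of the small and the large subunit. This list and the other gene lists below were chosen with earlier results of these data known. Each gene was measured by the probe set (the group of array probes that stands for 1 transcript) carrying its symbol alone, or the brightest such probe set where there were several. Of the 60 genes, 53 had such a probe set, and all 53 also passed the filter on low values, among 10025 genes tested in all. Rrn3 shared its probe set with Ntan1 and was left out, and Pes1, Wdr36, Utp20, Rrp12, Nop2 and Rrp1b were not matched to a probe set of their own and were not analysed here.

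Ventricular cardiomyocytes of neonatal Wistar rats were grown in culture and measured on 12 Affymetrix arrays in 4 groups of 3. Control cultures were untreated. The γ+ group received adenovirus of mef2Cγ+, the γ- group that of mef2Cγ- and the 23/24 group that of mef2Cγ+23/24. The γ segment is known as a repressor domain that splicing includes or leaves out, and the labels do not define 23/24. All cultures were plated for 44 h in medium with serum and then kept for 24 h without serum, and each array was made from 2 µg of their total RNA. There was no group with a virus lacking an insert, so every difference from control includes any effect of the adenovirus. The arrays are named biological replicates without a statement that the cultures came from separate cell isolations, so the p-values measure the spread between these samples.

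Ribosomes are assembled in the nucleolus, where RNA polymerase I transcribes the long precursor of most ribosomal RNA. SnoRNPs guide chemical modification of that precursor, the processome folds and cuts out the small subunit's RNA, and other GTPases, helicases and scaffold proteins build the large subunit. The process is among the costliest of a growing cell and is known to rise in cardiomyocytes during hypertrophic growth and in cells that enter the cell cycle.

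Values are read here as log2 units, a scale inferred from their range since no label gives the log base, and a difference of 1 is a doubling. Array medians over all probe sets ran from 5.33 to 5.53, and the number of arrays limits the precision. All 12 of the chosen cardiomyocyte markers were measured, with a mean level of 11.97 to 12.03 on the control arrays, and all 12 fibroblast and matrix markers were measured there too, at 9.85 to 9.86. These are bulk samples, in which fewer cells of a type and less RNA per cell cannot be told apart. Pairs of arrays were also searched for exactly equal values, which joint normalization can leave behind. All 21 pairs inside 3 sets of arrays had them (control with 23/24, γ+ alone, γ- alone), and 0 of the 45 pairs between sets did. No label says how these sets came about. Comparisons of γ+ or γ- with another group cross them, and there set and group cannot be told apart.

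In the γ+ group the nucleolar genes rose together. Of the 53 members, 46 were called higher than in control and 0 were called lower, with calls at an adjusted p under 0.05 from limma over all genes tested (47 and 0 at an unadjusted p under 0.05). The median difference of the members was 0.42, the quartiles were 0.26 and 0.55, and the range was -0.14 to 1.02. Over all genes tested, 26.2% were called higher and 38.7% lower, and the median difference was -0.07. The 3 γ+ arrays lay above the 3 control arrays for 44 members and below them for 0, against 26.6% and 40% of all genes. In 39 members (73.6%) the 3 γ+ arrays lay above all 9 other arrays, which held for 21.7% of all genes tested. Among all genes ranked by this difference, 43 of the 53 members stood in the highest 25% and 16 in the highest 10%. A difference of 1 or more was reached by Gnl3 among the members, and by 3.1% of all genes as calls, so the rises were many and moderate. The size of a member's difference followed its control level weakly (Pearson 0.0965 and Spearman 0.17 across 53 genes, which share the same arrays and are not independent).

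**Figure D1:**
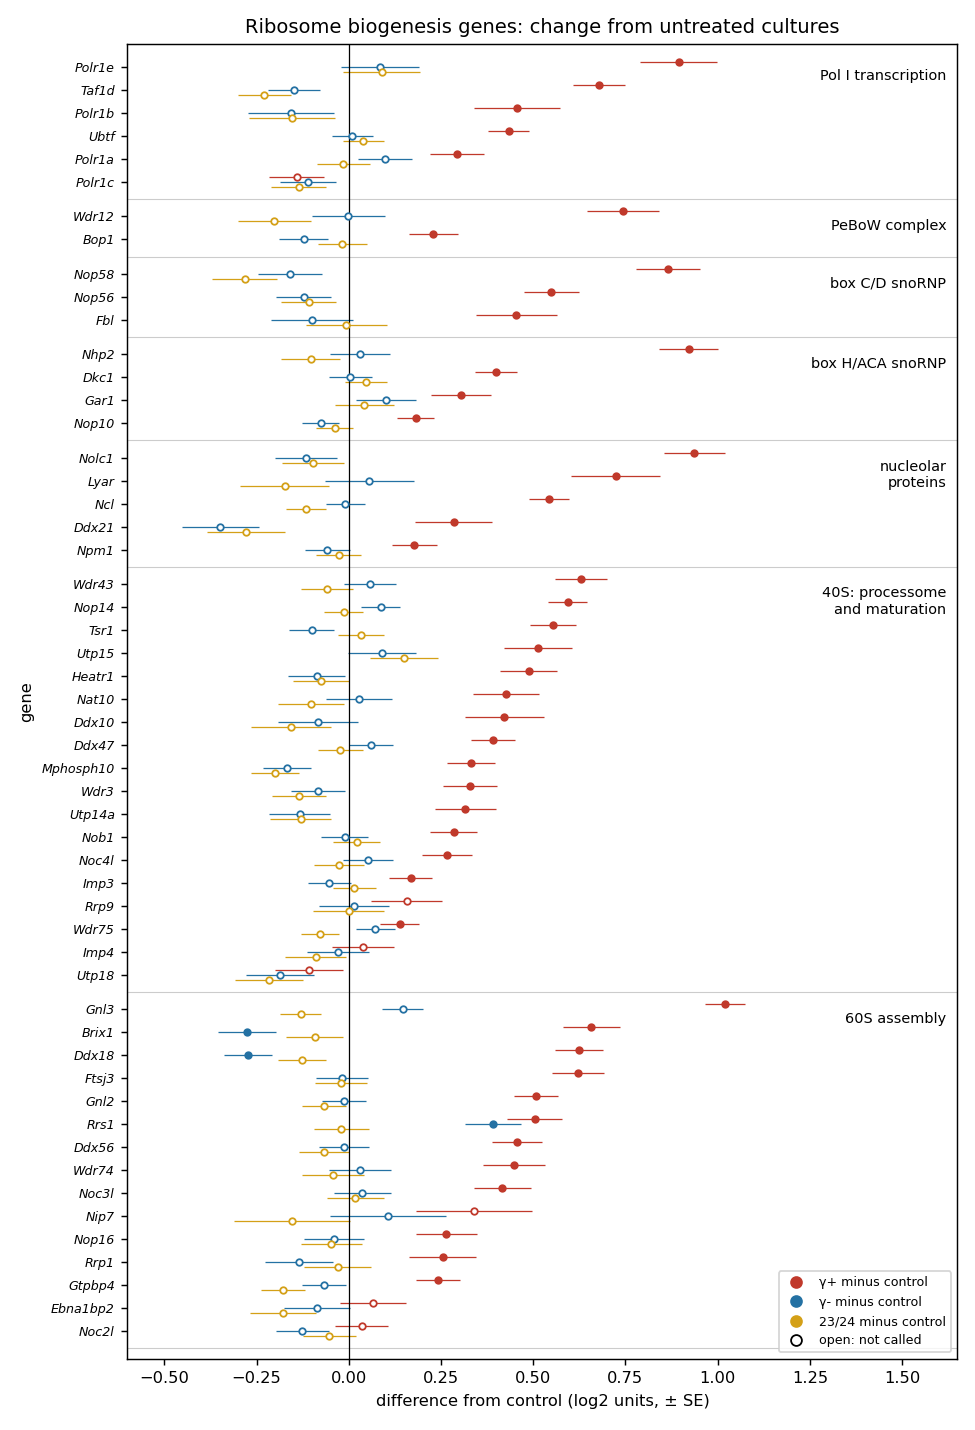
Difference from control in log2 units (x axis, mean ± SE from limma, n = 3 arrays per group) for the 53 members (y axis), sorted by role; red is γ+, blue γ- and yellow 23/24, and open points were not called. All 46 filled red points lie to the right of 0, while among the blue points Rrs1 is filled on the right and Ddx18 and Brix1 on the left, and no yellow point is filled.

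Other cell programmes differed between the same groups. All 14 measured proliferation markers of 16 listed were called higher in γ+ than in control (median difference 1.41), and their mean level was 8.31 to 8.36 on the control arrays and 9.77 to 9.97 on the γ+ arrays. All 12 cardiomyocyte markers were called lower (median -1.13), with mean levels of 10.77 to 10.88 in γ+. All 12 fibroblast and matrix markers (median -1.34), 5 of 6 smooth muscle markers, 7 of 7 measured endothelial markers of 8 listed and 4 of 6 measured macrophage and leukocyte markers of 9 listed were also called lower. None of these 5 cell type lists had a gene called higher in γ+. The γ- and 23/24 arrays read 8.32 to 8.39 and 8.30 to 8.36 for the proliferation markers and 12.04 to 12.05 and 11.98 to 12.04 for the cardiomyocyte markers. The part that these differences play in the nucleolar genes was not tested.

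Gnl3, which encodes nucleostemin, a nucleolar GTPase of the large subunit pathway, had the largest difference of the members. It read 7.34, 7.40 and 7.43 on the control arrays, 8.40, 8.43 and 8.41 on the γ+ arrays, 7.51, 7.55 and 7.54 on the γ- arrays and 7.27, 7.28 and 7.23 on the 23/24 arrays. The γ+ arrays stood alone at the top and no group overlapped another. The difference between γ+ and control was 1.02 ± 0.055 (SE), or 2.03-fold (limma, adjusted p = 1.0e-10). A second Gnl3 probe set lay below the filter and differed by 0.047.

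The region just before the start of Gnl3 and of 3 other members is shown. Gnl3 had the highest rise in γ+ of all members. Nop58 (box C/D) and Nhp2 (box H/ACA) had the highest of their own snoRNP class. Ddx18 was called in both the γ+ and the γ- group. Brix1 and Rrs1 were also called in both and are not shown. Rrs1 had no promoter sequence, and that of Brix1 held CCGGAA without CACGTG in the wider window described below. The sequences are the 120 bases before the annotated start, from RefSeq for the GRCr8 assembly. They lie at chr16:6219783-6219902 on the minus strand for Gnl3, chr9:68614954-68615073 on the plus strand for Nop58, chr10:36377900-36378019 on the plus strand for Nhp2 and chr13:35295973-35296092 on the minus strand for Ddx18. Capitals mark CACGTG, the E-box letters that MYC with MAX can bind, and CCGGAA or its reverse complement TTCCGG, the core of many ETS family sites.
Gnl3: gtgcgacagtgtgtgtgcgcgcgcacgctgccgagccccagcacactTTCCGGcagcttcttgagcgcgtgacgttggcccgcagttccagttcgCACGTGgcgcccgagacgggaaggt
Nop58: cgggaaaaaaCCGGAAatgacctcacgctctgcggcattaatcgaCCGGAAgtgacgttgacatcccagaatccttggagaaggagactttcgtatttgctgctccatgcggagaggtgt
Nhp2: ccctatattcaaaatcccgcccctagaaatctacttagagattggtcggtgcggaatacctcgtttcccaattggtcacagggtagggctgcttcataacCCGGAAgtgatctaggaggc
Ddx18: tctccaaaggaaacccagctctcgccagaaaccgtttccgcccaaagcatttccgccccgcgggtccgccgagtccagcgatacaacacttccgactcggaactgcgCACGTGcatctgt
Gnl3 held both motifs, Nop58 and Nhp2 held CCGGAA alone, and Ddx18 held CACGTG alone.

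Promoters were found for 49 of the 53 members (50 promoters, from 250 bases before to 50 after the start), and Bop1, Wdr43, Rrs1 and Gnl2 were not in the table. Both strands were searched, a promoter counted once for each motif, and matches of different motifs could share bases. CACGTG occurred in 12 of 50 member promoters (24%), against 7.02% of 21851 protein-coding promoters and 6.42% of all 33469 promoters. CCGGAA occurred in 29 of 50 (58%), against 17.7% of protein-coding and 15% of all promoters. TATAAA was in 1 member promoter, that of Nop58 (2%), against 13% of protein-coding promoters. The MEF2 motif was in 1 (2%), that of Nop16, against 2.88%. Median GC content was 55.8% in the members' promoters and 55.0% in protein-coding promoters. Members with CACGTG had a median γ+ difference of 0.42 and those without it 0.39, and the values for CCGGAA were 0.42 and 0.32. A match describes letters in this window and is not a measurement of binding.

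**Figure D2:**
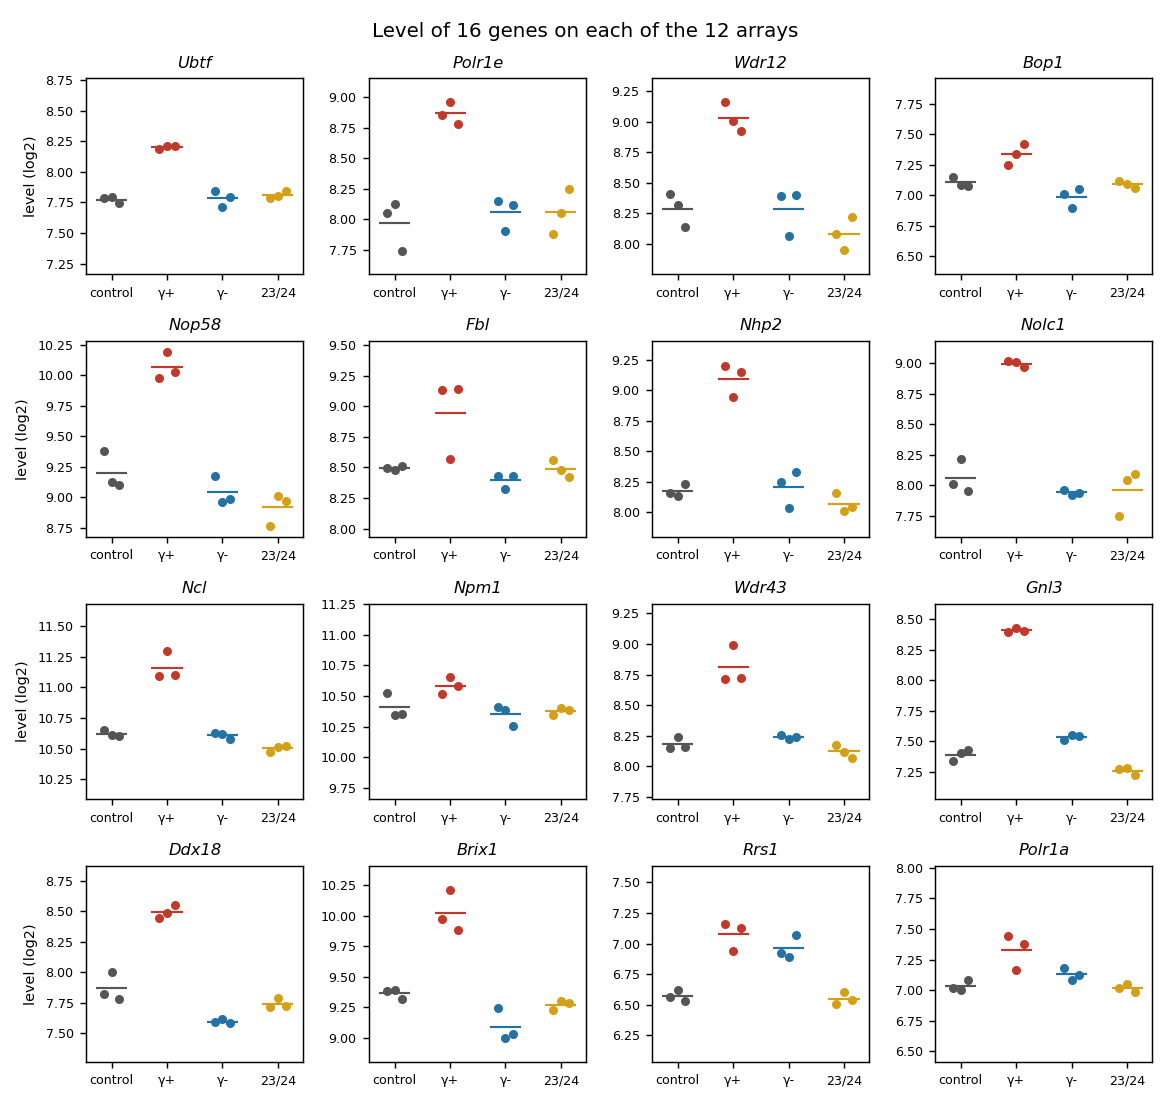
Level (y axis, log2) of 16 members on each of the 12 arrays, by group (x axis); points are arrays, bars are group means, and every panel spans the same log2 range around its own centre. The 3 γ+ points lie above the control points in every panel but that of Npm1, and Rrs1 also stands high on the γ- arrays.

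RNA polymerase I genes rose, with 5 of 6 measured genes of 7 listed called higher in γ+ than in control (median 0.44). Polr1e, the PAF53 subunit, read 8.05, 8.12 and 7.74 in control, 8.86, 8.96 and 8.78 in γ+, 8.15, 7.90 and 8.12 in γ- and 7.88, 8.05 and 8.25 in 23/24. Only the γ+ arrays stood apart for Polr1e, at 0.89 ± 0.10 above control (limma, adjusted p = 1.4e-06), while the other groups overlapped one another. Ubtf, the factor that opens ribosomal DNA for polymerase I, read 7.79, 7.79 and 7.74 in control, 8.19, 8.21 and 8.21 in γ+, 7.84, 7.71 and 7.79 in γ- and 7.79, 7.80 and 7.85 in 23/24. Its γ+ arrays had an SD of 0.013 and lay above all others, 0.43 ± 0.056 above control (limma, adjusted p = 3.8e-06). Polr1a encodes the largest, catalytic subunit. It read 7.02, 7.002 and 7.08 in control, 7.44, 7.16 and 7.38 in γ+, 7.18, 7.08 and 7.13 in γ- and 7.02, 7.05 and 6.99 in 23/24. The second γ+ array of Polr1a fell among the γ- arrays, and the difference from control was 0.29 ± 0.072 (limma, adjusted p = 0.0021). Taf1d, a subunit of the SL1 promoter factor, rose by 0.68 and Polr1b, the second largest subunit, by 0.46. Polr1c, a subunit that polymerases I and III share, was the exception at -0.14 ± 0.075 (limma, adjusted p = 0.11).

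Both measured subunits of PeBoW, the complex that processes the large subunit's RNA, were called higher. Wdr12 read 8.41, 8.32 and 8.13 in control, 9.16, 9.01 and 8.92 in γ+, 8.39, 8.07 and 8.40 in γ- and 8.08, 7.95 and 8.22 in 23/24. Every γ+ array exceeded every other array for Wdr12, with a difference from control of 0.74 ± 0.098 (limma, adjusted p = 5.5e-06). Its partner Bop1 read 7.15, 7.09 and 7.08 in control, 7.25, 7.34 and 7.42 in γ+, 7.01, 6.89 and 7.05 in γ- and 7.11, 7.09 and 7.06 in 23/24. The γ+ arrays of Bop1 again lay highest, but by less, 0.23 ± 0.066 above control (limma, adjusted p = 0.0064), and the γ- arrays lay lowest, 0.12 below control with no call.

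All 3 box C/D and all 4 box H/ACA core proteins of the snoRNPs were called higher in γ+. Among the box C/D proteins, which direct ribose methylation, the median was 0.55, and Nop58 differed most. Nop58 read 9.38, 9.12 and 9.10 in control, 9.98, 10.19 and 10.03 in γ+, 9.18, 8.97 and 8.98 in γ- and 8.77, 9.02 and 8.97 in 23/24. Its γ+ arrays stood clear of all others, 0.86 ± 0.088 above control (limma, adjusted p = 2.4e-07), and its 23/24 arrays lay below the control arrays. Fbl, the methyltransferase fibrillarin, read 8.49, 8.48 and 8.51 in control, 9.13, 8.57 and 9.14 in γ+, 8.43, 8.32 and 8.43 in γ- and 8.56, 8.48 and 8.42 in 23/24. The second γ+ array of Fbl lay just above the highest control and 23/24 arrays, so that its difference of 0.45 ± 0.11 (limma, adjusted p = 0.0018) came with the widest γ+ spread of the snoRNP genes (SD 0.33). Nop56, the third core protein, differed by 0.55.

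The box H/ACA proteins, which direct pseudouridylation, had a median of 0.35 with 4 of 4 called higher. Nhp2, an RNA-binding core protein, read 8.16, 8.13 and 8.23 in control, 9.19, 8.94 and 9.15 in γ+, 8.25, 8.04 and 8.33 in γ- and 8.16, 8.01 and 8.05 in 23/24. The γ+ arrays of Nhp2 lay well above the rest, 0.92 ± 0.080 above control (limma, adjusted p = 3.9e-08), and the others overlapped. Dkc1, the pseudouridine synthase dyskerin, differed by 0.40, Gar1 by 0.30 and Nop10 by 0.18.

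The group of other nucleolar proteins was called higher in 5 of 5 cases (median 0.54), with very unequal sizes. Nolc1, a phosphoprotein that binds snoRNPs, read 8.02, 8.21 and 7.95 in control, 9.01, 9.01 and 8.97 in γ+, 7.97, 7.92 and 7.94 in γ- and 7.75, 8.05 and 8.09 in 23/24. The γ+ arrays of Nolc1 were close to one another and far from the rest, 0.94 ± 0.084 above control (limma, adjusted p = 5.4e-08). Ncl, nucleolin, which binds the precursor RNA, read 10.65, 10.61 and 10.60 in control, 11.09, 11.30 and 11.10 in γ+, 10.63, 10.62 and 10.58 in γ- and 10.48, 10.52 and 10.52 in 23/24. It differed by 0.54 ± 0.054 between γ+ and control (limma, adjusted p = 1.9e-07), and its 23/24 arrays lay below all control arrays without a call. Npm1, nucleophosmin, a histone and ribosome chaperone, read 10.53, 10.35 and 10.35 in control, 10.52, 10.66 and 10.58 in γ+, 10.41, 10.38 and 10.25 in γ- and 10.35, 10.40 and 10.39 in 23/24. The control and γ+ arrays of Npm1 overlapped, its difference was 0.18 ± 0.061 (limma, adjusted p = 0.017), and the call was lost in 4 of 22 alternative settings, among them leaving out the second or the third control array and the mean over its probe sets (0.12, adjusted p = 0.070 by limma). Lyar, a nucleolar growth regulator, differed by 0.72. Ddx21, an RNA helicase, differed by 0.28 with overlapping arrays, and its second probe set by 0.58. Its call was lost in 5 of 22 alternative settings, namely without the first or the second control array, without the first or the third γ+ array, and with the 6 compared arrays alone.

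Of the factors for the small subunit, 15 of 18 measured genes of 21 listed were called higher in γ+ (median 0.33). Wdr43, of the processome part that joins transcription to processing, read 8.15, 8.24 and 8.16 in control, 8.71, 8.99 and 8.72 in γ+, 8.25, 8.22 and 8.24 in γ- and 8.18, 8.12 and 8.07 in 23/24. The 3 γ+ arrays of Wdr43 were the highest of the 12, at 0.63 ± 0.071 above control (limma, adjusted p = 8.4e-07). Other processome genes followed with Nop14 at 0.59, Utp15 at 0.51 and Heatr1 at 0.49. Tsr1, a maturation factor of the later small subunit, differed by 0.55, Nat10, the RNA cytidine acetyltransferase, by 0.43, and Nob1, the nuclease that makes the final cut of the small subunit's RNA, by 0.28. The partners Imp3, Imp4 and Mphosph10, which act together on the U3 snoRNP, were unequal, at 0.17 (called), 0.039 (not called) and 0.33 (called). Utp18 was at -0.11 and the U3 protein Rrp9 at 0.16, both without a call.

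Of the factors for the large subunit, 12 of 15 measured genes of 17 listed were called higher in γ+ (median 0.45), led by Gnl3. Brix1, which helps shape the early large subunit, read 9.38, 9.39 and 9.32 in control, 9.97, 10.21 and 9.89 in γ+, 9.24, 8.998 and 9.03 in γ- and 9.23, 9.30 and 9.29 in 23/24. The γ+ arrays of Brix1 lay 0.66 ± 0.078 above control (limma, adjusted p = 1.5e-06) and the γ- and 23/24 arrays lay below all control arrays. Ddx18, an RNA helicase, read 7.82, 8.003 and 7.79 in control, 8.44, 8.49 and 8.55 in γ+, 7.59, 7.62 and 7.58 in γ- and 7.72, 7.79 and 7.72 in 23/24. The γ+ arrays of Ddx18 were the highest, 0.62 ± 0.064 above control (limma, adjusted p = 3.0e-07), and its γ- arrays the lowest. Rrs1, which with Rpf2 brings in the RNA made by polymerase III, read 6.56, 6.62 and 6.53 in control, 7.16, 6.94 and 7.13 in γ+, 6.92, 6.89 and 7.07 in γ- and 6.51, 6.60 and 6.54 in 23/24. For Rrs1 the γ+ and γ- arrays overlapped and both lay above control and 23/24, with γ+ 0.50 ± 0.075 above control (limma, adjusted p = 2.0e-05). The methyltransferase Ftsj3 differed by 0.62, the GTPase Gnl2 by 0.51 and the helicase Ddx56 by 0.46.

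The 7 measured members without a call in γ+ against control were Polr1c, Utp18, Imp4, Rrp9, Nip7, Noc2l and Ebna1bp2. Noc2l (0.035) and Ebna1bp2 (0.066), both of the large subunit pathway, and Imp4 lay near 0. A second, dimmer probe set of Ebna1bp2 (mean level 5.61) differed by 0.27. Nip7, which acts in the final steps of the large subunit's RNA, read 7.30, 6.57 and 7.39 on the γ+ arrays and 6.78, 6.73 and 6.74 on the control arrays. The first and the third γ+ array were thus high and the second was below all control arrays, giving 0.34 ± 0.16 (limma, adjusted p = 0.070). A second probe set of Nip7 differed by 0.43.

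The second γ+ array was the lowest of its group in 31 of 53 members, the first in 13 and the third in 9. The median member stood 0.28 above the control mean on the second array and 0.48 on each of the others. Above the control mean were 46 members on the second array and 52 on each of the others. Without the second array 48 members were called higher and 0 lower, with a median of 0.48, beside 28.4% and 38.2% of all genes. The median SD of a member over 3 arrays was 0.053 in control, 0.11 in γ+, 0.064 in γ- and 0.070 in 23/24.

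Against the γ- group, γ+ had 44 of 53 members called higher and 0 lower (45 and 0 at an unadjusted p under 0.05; limma), with a median of 0.42, where 26.7% of all genes were called higher and 37.5% lower. Nolc1 and Nop58 were above γ- by 1.05 ± 0.084 (limma, adjusted p = 1.3e-08) and 1.02 ± 0.088 (limma, adjusted p = 3.2e-08), and Brix1 by 0.93 ± 0.078 (limma, adjusted p = 2.4e-08). Nolc1 and Nop58 were the 2 members at 1 or more, which 2.94% of all genes reached as calls. Ddx18, where γ+ and γ- lay on opposite sides of control, differed between them by 0.90 ± 0.064 (limma, adjusted p = 3.7e-09). Polr1a differed by 0.20 ± 0.072 (limma, adjusted p = 0.027), a call lost in 5 of 22 alternative settings, among them without the first or the third γ+ array and without the second or the third γ- array. Rrs1, which had risen in both, differed by 0.11 ± 0.075 (limma, adjusted p = 0.20). The other members without a call were Polr1c, Wdr75, Utp18, Imp4, Rrp9, Nip7, Noc2l and Ebna1bp2.

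Against the 23/24 group, 48 members were called higher in γ+ and 0 lower (the same counts at an unadjusted p under 0.05; limma), with a median of 0.49, where 28% of all genes were called higher and 37.9% lower. Gnl3 and Nop58 both differed by 1.15 (SE 0.055 and 0.088; limma, adjusted p = 2.3e-11 and 7.9e-09). Taf1d differed by 0.91 ± 0.071 (limma, adjusted p = 1.0e-08), Nolc1 by 1.03 and Nhp2 by 1.02. A difference of 1 or more was reached by 4 members, beside 3.32% of all genes called so. Polr1c, Utp18, Imp4, Rrp9 and Noc2l were the 5 without a call.

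In the γ- group the members were called about as rarely as all genes. Against control 1 member was called higher and 2 lower (1.89% and 3.77%, median -0.030), beside 3.06% and 3.88% of all genes. Rrs1 was higher by 0.39 ± 0.075 (limma, adjusted p = 0.0069), with every γ- array above every control array, and the call held in all 22 alternative settings. Ddx18 was lower, at -0.27 ± 0.064 (limma, adjusted p = 0.021), and Brix1 at -0.28 ± 0.078 (limma, adjusted p = 0.045), again with no overlap of arrays. Median centring of the arrays ended both calls (Ddx18 -0.26, adjusted p = 0.067; Brix1 -0.26, adjusted p = 0.096, by limma), and leaving out the second control array also ended both (adjusted p = 0.092 and 0.13 by limma). Of 22 alternative settings, Ddx18 was called in 17, not without any 1 of the γ- arrays, and Brix1 in 9, not without any 1 of the control or 23/24 arrays or without the second or the third γ- array. Ddx21 was at -0.35 ± 0.10, with all γ- arrays below control and no call (limma, adjusted p = 0.056). Its second probe set was at -0.17. Without the second γ+ array, which enters the shared estimate of spread, 4 members were called lower in γ-, beside 9.56% of all genes. Arrays did not overlap in 7 of the 53 members above and 11 below, shares near the 14.4% and 19% of all genes.

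The 23/24 group had no member called against control in either direction, and 0% of all genes were called (limma). Without an adjustment of p, 0 members were higher and 8 lower at p under 0.05, beside 3.11% and 5.86% of all genes. The median member stood at -0.067 against -0.023 for all genes, and 44 of 53 were below 0, as were 6049 of all 10025 genes. The arrays lay wholly below control for 14 members and above for 0, beside 12.2% and 5.7% of all genes. Taf1d had the lowest p. It read 8.53, 8.52 and 8.68 in control, 9.21, 9.26 and 9.30 in γ+, 8.56, 8.41 and 8.32 in γ- and 8.41, 8.38 and 8.25 in 23/24. The 23/24 arrays of Taf1d lay below control by 0.23 ± 0.071, which did not pass (limma, adjusted p = 0.38). Nop58 and Ddx21 were both at -0.28, likewise without a call, and the second probe set of Ddx21 was at -0.076. With the second γ+ array left out of the shared fit, 22 of all genes were called higher and 36 lower in 23/24, and 0 of the members.

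Between γ- and 23/24, 2 members were called higher in γ- and 0 lower (3 and 3 at an unadjusted p under 0.05; limma), with a median of 0.030, beside 4.16% and 3.94% of all genes. They were Rrs1 (0.41 ± 0.075, limma, adjusted p = 0.0048) and Gnl3 (0.28 ± 0.055, limma, adjusted p = 0.0074). For both, the 3 γ- arrays lay above the 3 arrays of 23/24. Without the second γ+ array 5 members were called higher and 1 lower, beside 10.3% and 8.03% of all genes.

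Genes of the same pathway outside the members also differed in γ+, in lists likewise chosen with earlier results of these data known. Over all genes, 26.2% were called higher and 38.7% lower in γ+ against control. Among 29 measured of 35 other small subunit factors, 24 were called higher and 0 lower (median 0.37). Krr1, a processome protein, read 7.84, 7.99 and 7.94 in control and 8.53, 8.74 and 8.58 in γ+, a difference of 0.70 ± 0.066 (limma, adjusted p = 1.0e-07). The helicase Dhx37, which frees the U3 snoRNA, differed by 0.70, and Tsr2, an escort of a ribosomal protein, by 0.63. Among 34 measured of 39 other large subunit factors, 20 were called higher and 1 lower (median 0.25). Nol9, the kinase that acts on the spacer RNA ends, was higher by 0.75 ± 0.092 (limma, adjusted p = 2.3e-06), with 7.91, 7.94 and 7.84 in control and 8.80, 8.35 and 8.78 in γ+. Rpf1 and the helicase Ddx27 were higher by 0.51 and 0.53.

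Transcription and processing factors beyond the member list were more mixed, beside 26.2% higher and 38.7% lower of all genes in γ+ against control. Of 12 measured of 17 other polymerase I and nucleolar transcription genes, 6 were called higher and 2 lower (median 0.22). Tcof1, treacle, which acts with Ubtf at ribosomal DNA, differed by 0.71 ± 0.062 (limma, adjusted p = 4.2e-08), the polymerase I subunit gene Polr1g by 0.57 and the topoisomerase gene Top1 by 0.40. Of 18 measured of 22 polymerase III genes, 11 were called higher and 2 lower (median 0.22), with Gtf3c4 at 0.70, Polr3c at 0.60 and Gtf3c6 at 0.54. The RNA exosome, which trims the precursor's ends, had 6 higher and 1 lower of 10 measured of 14 (median 0.36). Exosc8 read 7.13, 7.30 and 6.97 in control and 8.62, 8.34 and 8.46 in γ+, the largest of these differences at 1.34 ± 0.095 (limma, adjusted p = 3.0e-09). Exosc2 differed by 0.96 and the exosome helicase gene Mtrex by 0.45. Of 10 measured of 11 snoRNP assembly factors, 7 were higher and 1 lower (median 0.39): the box H/ACA assembly factor Naf1 differed by 0.66 and the RNA-binding protein Snu13 by 0.65, while the box C/D assembly factor Znhit6 was lower, at -0.50 ± 0.076 (limma, adjusted p = 2.6e-05).

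**Figure D3:**
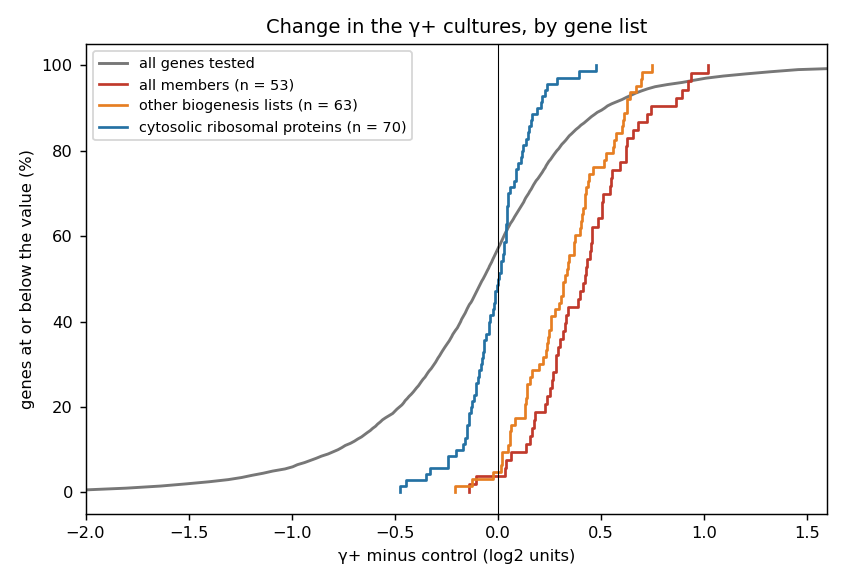
Cumulative share of genes (y axis, percent) at or below each difference between γ+ and control (x axis, log2 units) for all 10025 genes tested, the 53 members, 63 other small and large subunit factors and 70 cytosolic ribosomal proteins. The members' curve lies to the right with a median of 0.42, the other factors lie near it, and the ribosomal proteins cross the middle at 0.00.

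The proteins of the ribosome itself did not follow the assembly factors in size. Of 70 measured of 82 cytosolic ribosomal protein genes, 10 were called higher and 10 lower in γ+ against control, and the median was 0.00. These are 14.3% in each direction, below the 26.2% higher and 38.7% lower of all genes. Rpl34 was lower, at -0.44 ± 0.053 (limma, adjusted p = 1.7e-06), as was Rps27 at -0.47, and Rpl13 was higher by 0.24. The counts turned on the scaling of the arrays. After median centring 15 of the 70 were higher and 4 lower, beside 31.8% and 30.3% of all genes. After quantile normalization 34 of the 70 were higher and 4 lower (median 0.14), beside 31.2% and 33.9% of all genes. The share higher was then above that of all genes. Without the second γ+ array the counts were 20 and 11 (28.4% and 38.2% of all genes). With the 6 compared arrays alone they were 6 and 5 (23.9% and 35.6%). These genes have many near-identical copies in the genome, so their probe sets may read more than 1 locus. The members had 48 higher and 0 lower under both scalings.

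Genes of the MYC network, which is known to drive ribosome biogenesis, were called in γ+ in both directions, at shares near those of all genes. Myc itself read 7.24, 7.27 and 7.30 in control, 6.37, 6.23 and 6.31 in γ+, 6.89, 6.96 and 6.92 in γ- and 7.21, 7.14 and 7.08 in 23/24. It was lowest on the γ+ arrays, -0.97 ± 0.064 against control (limma, adjusted p = 1.3e-09), and also lower on the γ- arrays, at -0.35 ± 0.064 (limma, adjusted p = 0.0057). Of 9 measured network genes of 12 listed, 2 were called higher and 3 lower in γ+ (median 0.034), beside 26.2% and 38.7% of all genes. Mycn was lower as well, at -0.65, and Mxd3, a partner of MAX that opposes MYC, was higher by 0.59. In the branch where unassembled 5S ribonucleoprotein restrains MDM2 and frees p53, 2 of 6 measured genes were called higher and 1 lower. The genes of the 5S ribonucleoprotein's own proteins, Rpl5 (0.15) and Rpl11 (0.11), were not called (limma, adjusted p = 0.071 and 0.23). Mdm4 (0.15) was not called either (limma, adjusted p = 0.20). Cdkn1a, the cell cycle inhibitor p21, was higher by 1.54 ± 0.070 in γ+ (limma, adjusted p = 1.3e-11) and by 0.53 in γ- (limma, adjusted p = 8.2e-04). Its mean level in 23/24 was 10.04 against 9.67 in control, without a call. Mdm2 was higher by 1.19 in γ+, with mean levels of 8.72 in control, 9.03 in γ- and 8.96 in 23/24. Cdkn2a, whose locus encodes the ARF protein, was lower in γ+, at -0.72.

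**Figure D4:**
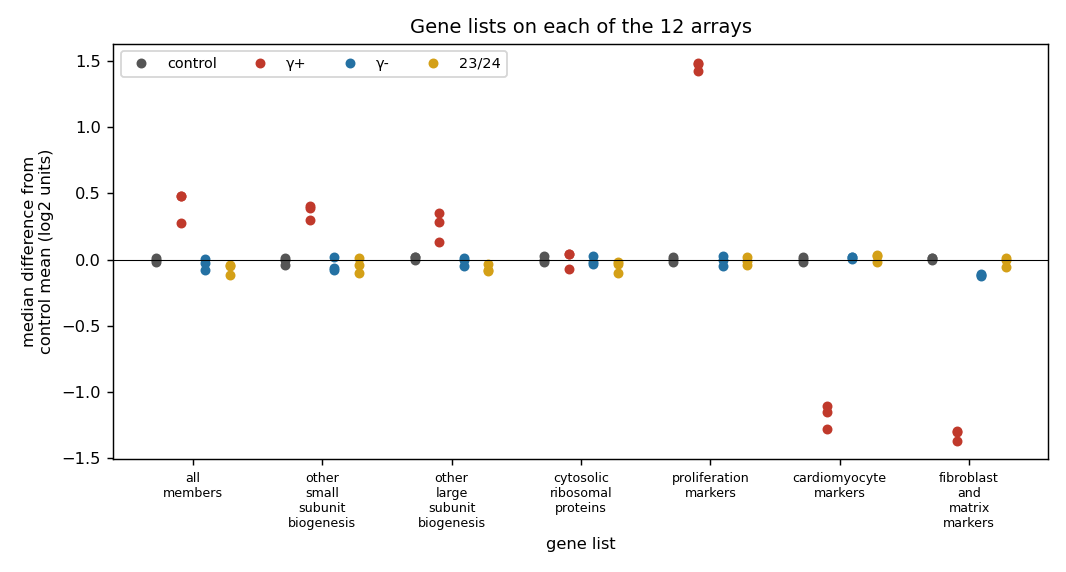
Median difference of each gene list from the control mean (y axis, log2 units) on each of the 12 arrays (points, coloured by group), for 7 lists (x axis). The γ+ points for the members lie at 0.28 to 0.48 and for the proliferation markers at 1.43 to 1.49. Those for cardiomyocyte markers lie at -1.27 to -1.10, and those for ribosomal proteins lie between -0.069 and 0.040.

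Over all pathway lists together, 88 of 196 measured genes outside the members were called higher and 21 lower in γ+ against control, beside 26.2% and 38.7% of all genes. Median centring of the arrays gave 106 higher and 12 lower, beside 31.8% and 30.3% of all genes. Quantile normalization gave 122 and 15, beside 31.2% and 33.9%. In γ- against control, where 3.06% of all genes were called higher and 3.88% lower, 1 of the 29 other small subunit factors was called higher (Tsr2, by 0.24) and 3 lower. Of the 10 snoRNP assembly genes 0 were called higher and 2 lower there, of the 9 MYC network genes 0 and 2, of the 6 genes of the 5S branch 2 and 0, and of the 12 other Pol I genes 1 and 0. The other large subunit, Pol III, exosome and ribosomal protein lists, 132 genes, had 0 calls in γ- against control (limma), and 4 higher and 10 lower at an unadjusted p under 0.05, beside 9.8% and 13% of all genes.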

How the data were processed

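The authors deposited 1 table of values for all 12 arrays, used here as log2 intensities (1.09 to 13.89). MAS5 is the 1 tool in the submitters' processing notes, without a version. How background, summarization, log base and normalization were set is not given in the sources used here. The members and gene lists were chosen with earlier results of these data known. The table held 28826 probe sets, of which 15209 carried a single symbol. The filter kept the 17295 probe sets whose mean exceeded the 40th percentile (4.78), and the brightest stood for each gene. Group means were fitted with limma 3.58.1 in R 4.3.3 (lmFit, eBayes with an intensity trend, 8 residual degrees of freedom), with Benjamini-Hochberg adjustment over 10025 genes in each of 6 comparisons and calls at 0.05. No test was made of a list. Values of every array are given for Bop1, Npm1, Ncl, Fbl, Polr1a and Ubtf, for the largest called rise and fall of each role, for up to 3 called members of lowest adjusted p in each other comparison (the lowest p where none was called) and for Myc. Up to 3 called genes of lowest adjusted p are named per pathway list. No Mef2c probe set was among those used. In simulated data on these arrays (10025 genes), some genes were raised or lowered in γ+, in equal number. Against control, the procedure called 11 of 50 genes changed by 0.25, 43 of 50 changed by 0.5 and 50 of 50 changed by 1, each in the direction set. Far fewer genes were changed there than were called in the real comparison (26.2% higher and 38.7% lower). The adjusted threshold was therefore stricter in the simulation, and its counts do not give the sensitivity of the real comparison.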

Additional observations from a re-analysis of the deposited data

How the results depend on the processing

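The counts and medians of the members were recomputed under 22 alternative settings, and the median in γ- against 23/24 changed sign in 1 of them (0.030 to -0.0081 without the first 23/24 array). Median centring of the arrays, which moved the median of all genes by 0.088 in γ+ against control and by 0.14 in γ+ against 23/24, raised the members' median to 0.51 in γ+ against control, 0.50 against γ-, 0.63 against 23/24 and 0.095 in γ- against 23/24. Taken relative to the median of all genes these were 0.49, 0.48 and 0.56 for the comparisons of γ+. Median centring also moved the share of higher among all called genes from 40.4% to 51.2% in γ+ against control, from 42.5% to 58.5% against 23/24 and from 51.4% to 77.9% in γ- against 23/24. The number of members lower in γ- against control was 0 after median centring (2.07% of all genes). It was 1 with quantile normalization (3.84%), the 60th percentile filter (3.1%) or no intensity trend (4%). With the 6 compared arrays alone it was 4, beside 7.79% of all genes. That setting gave 1 lower in γ- against 23/24, beside 7.75% of all genes. The cause was not tested. Of the pathway genes outside the members, 12 were lower in γ+ against control after median centring, beside 30.3% of all genes.

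Same-numbered arrays of different groups deviated together in 1 of 18 pairs (correlations -0.22 to 0.12), so the numbers were not taken as a pairing. With the replicate number as a block, 46 members were higher and 0 lower in γ+ against control, beside 25.7% and 38.2% of all genes. In γ- against control 1 was lower, beside 2.86% of all genes.

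Leaving out each of the 12 arrays gave 41 to 48 members higher, 0 to 1 lower and a median of 0.36 to 0.48 in γ+ against control. It gave 41 to 49 higher and 0.40 to 0.49 against γ-, and 44 to 51 higher and 0.43 to 0.56 against 23/24. In γ- against control the ranges were 1 higher, 0 to 4 lower and -0.062 to -0.0029, and in 23/24 against control 0 called and -0.092 to -0.032. In γ- against 23/24 they were 2 to 5 higher, 0 to 1 lower and -0.0081 to 0.056. The pathway genes had 80 to 107 higher and 18 to 27 lower. Of the 46 members called higher in γ+ against control, 39 were called in all 22 settings, and Npm1, Ddx21, Wdr75, Imp3, Nop16, Rrp1 and Gtpbp4 were not. The 3-array groups limit small changes, and signal over background was not given. The list counts under other scalings and without the second γ+ array were chosen after seeing the data.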
